A study of Homo sapiens with 4 samples.

Results

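CYTOR and MIR4435-2HG are a pair of long non-coding RNA (lncRNA) genes on chromosome 2 that lie on duplicated copies of the same sequence. Their transcripts were taken from a table of non-coding transcripts of HUH7, a line of human hepatocellular carcinoma cells in long use. All transcripts whose identifier, without its version, belongs to either gene in the GENCODE annotation were kept. There were 25 of them among 19835 in the table, 11 of CYTOR and 14 of MIR4435-2HG. The pair was selected on its levels in these same libraries, so the levels, their parallel course and all counts of members by level are a description, and nothing is supported with them.

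The samples were 4 libraries of 1 group of HUH7 cells in standard culture medium with serum, named here replicates 1 to 4, with no genotype, treatment or time in the labels. The RNA, from a Qiagen RNeasy extraction, was depleted of ribosomal RNA and sequenced with strand-specific libraries, although the labels name the molecule as polyA RNA. Whether each library had its own culture is not given, so their spread may be technical. The titles of replicates 1 and 3 carry the letter L and those of replicates 2 and 4 the letter H, which are internal names and no variable, per the labels.

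CYTOR, the cytoskeleton regulator RNA, was earlier called LINC00152 and is known as a lncRNA that is raised in many cancers, liver cancer among them. MIR4435-2HG is named as the host gene of a microRNA, miR-4435, and has also been described under the names LINC00978 and MORRBID, the latter as a regulator of the nearby apoptosis gene BCL2L11 in myeloid cells. A segmental duplication leaves near-identical copies of a stretch of genome at separate places, so that a short sequencing read from one copy can often be placed on the other as well. RSEM, the program behind these values, divides such reads among the transcripts they match by estimation, and the values of the transcripts then depend on each other.

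The duplication covered nearly the whole of CYTOR and a smaller part of the annotated MIR4435-2HG gene. On GRCh37, CYTOR lies at chr2:87754300-87936259 on the plus strand (181960 nt), and MIR4435-2HG at chr2:111763592-112280953 on the minus strand (517362 nt). Matches of at least 1000 nt and 90% identity joined the copies in 3 blocks of 10.8, 27.9 and 143 kb, with identities of 99.3%, 98.5% and 99.3%. They covered 99.8% of the CYTOR span and 35.1% of the MIR4435-2HG span. The identity over all blocks was 99.2%, with 1058 mismatches and 406 gap positions. With 200 kb of flanking sequence added, the match ran on past CYTOR on either side. The block holding the CYTOR start began 23.3 kb before it, and the last long block ended 243 kb after it. On the MIR4435-2HG side, the same blocks began 4.3 kb and ended 270 kb after the gene start. The 35.1% counts matches to the CYTOR span alone, so more of MIR4435-2HG is duplicated than that.

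**Figure D1:**
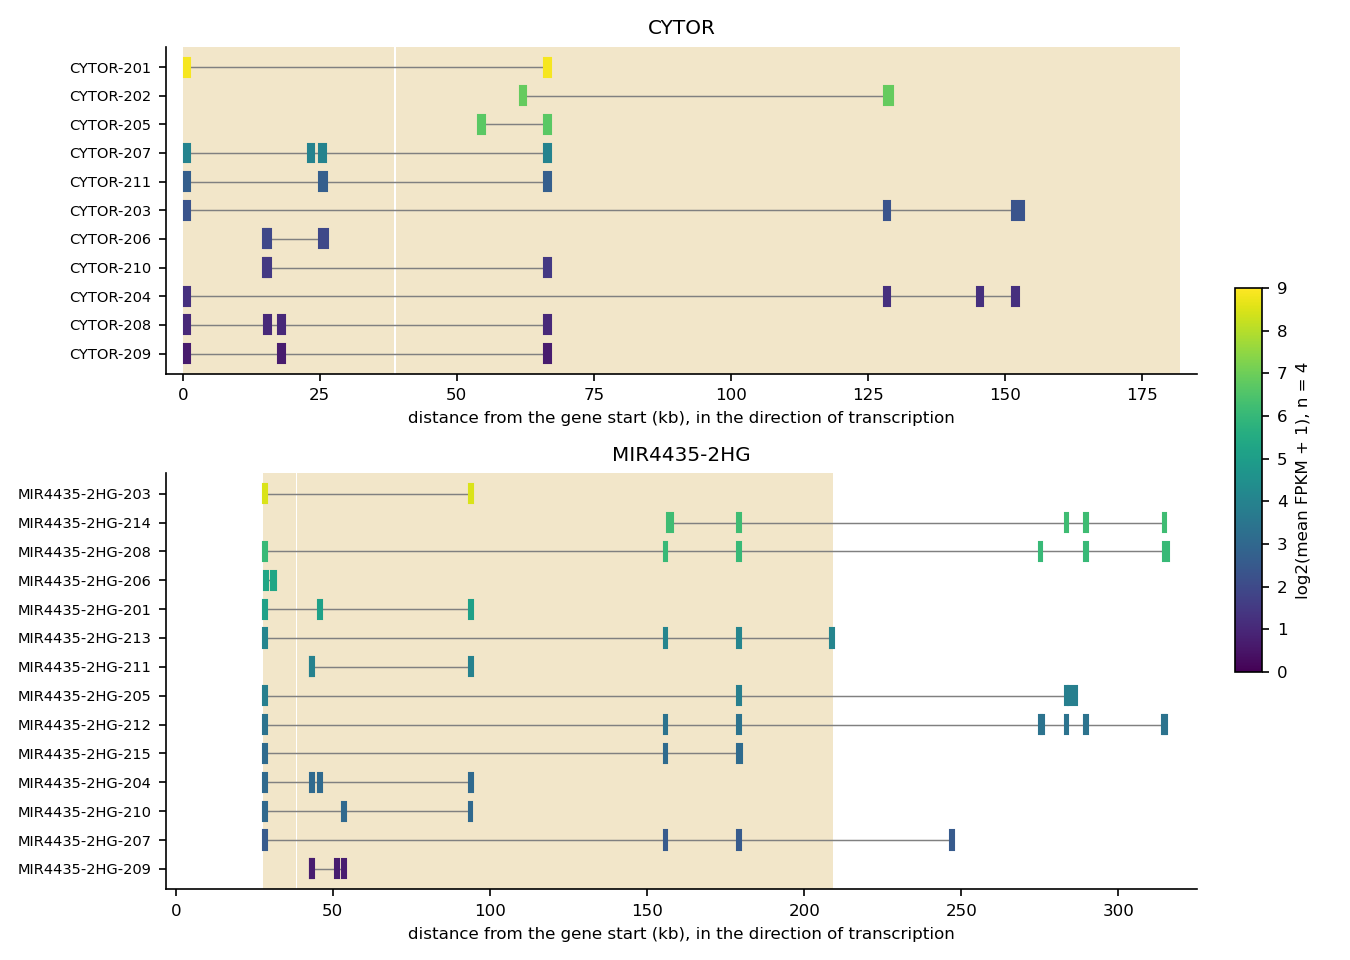
Exons (boxes, widened for visibility) and introns (lines) of the 11 CYTOR and 14 MIR4435-2HG transcripts against the distance from the gene start in kb, coloured by log2(mean FPKM + 1) over 4 libraries, with the duplicated blocks shaded. All CYTOR exons lie within shaded sequence, and the last exons of MIR4435-2HG-205, MIR4435-2HG-207, MIR4435-2HG-208, MIR4435-2HG-212 and MIR4435-2HG-214 lie beyond it. Shading shows matches to the CYTOR span only, and the last exon of MIR4435-2HG-207 lies in a match to the sequence after CYTOR.

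In the present models, the most abundant transcripts of the 2 genes were counterparts with the same intron. CYTOR-201 was measured on an older version of its model, which may differ from the one compared here. CYTOR-201 (ENST00000331944) and MIR4435-2HG-203 (ENST00000409569) have 2 exons each, with the same intron, and their sequences are shown because they hold the few bases by which reads of the pair can be told apart. Over 515 aligned nt, 509 were identical (98.8%). The differences were 5 substitutions and 1 base present only in CYTOR, in a run of T. With positions counted from 1 at the 5′ end of CYTOR-201, and the CYTOR base given first, the substitutions were T215C, C277T, G293T, C374T and A478G. Capitals mark the differing bases in the first exons (chr2:87754948-87755164, plus strand, and chr2:112252462-112252663, minus strand) and in the first 300 bases of the second exons (chr2:87820726-87821025, plus strand, and chr2:112186898-112187197, minus strand), all from GRCh37 and 5′ to 3′.
CYTOR-201 exon 1: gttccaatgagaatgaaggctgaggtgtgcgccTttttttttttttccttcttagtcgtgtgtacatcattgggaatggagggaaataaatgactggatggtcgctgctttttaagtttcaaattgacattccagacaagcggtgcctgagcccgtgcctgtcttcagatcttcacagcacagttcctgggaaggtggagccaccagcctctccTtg
MIR4435-2HG-203 exon 1: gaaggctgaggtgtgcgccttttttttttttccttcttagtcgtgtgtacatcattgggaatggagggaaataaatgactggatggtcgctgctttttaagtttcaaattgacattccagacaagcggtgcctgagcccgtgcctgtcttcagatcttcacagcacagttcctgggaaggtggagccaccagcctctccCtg
CYTOR-201 exon 2, first 300 bases: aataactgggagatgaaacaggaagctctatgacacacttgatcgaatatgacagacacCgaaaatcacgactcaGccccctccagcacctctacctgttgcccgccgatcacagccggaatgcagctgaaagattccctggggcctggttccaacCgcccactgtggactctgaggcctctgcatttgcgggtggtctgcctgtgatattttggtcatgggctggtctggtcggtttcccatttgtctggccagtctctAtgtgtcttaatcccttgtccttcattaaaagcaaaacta
MIR4435-2HG-203 exon 2, first 300 bases: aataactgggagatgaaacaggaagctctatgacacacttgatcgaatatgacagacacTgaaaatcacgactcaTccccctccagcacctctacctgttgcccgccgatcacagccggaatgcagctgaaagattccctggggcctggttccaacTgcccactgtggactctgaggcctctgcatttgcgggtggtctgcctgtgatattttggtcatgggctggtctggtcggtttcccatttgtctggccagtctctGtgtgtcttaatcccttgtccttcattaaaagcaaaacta
The CYTOR model also starts further upstream, with first exons of 217 and 202 nt.

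Other parts of MIR4435-2HG have no second copy. In MIR4435-2HG-208, 1092 of 1542 nt (70.8%), and in MIR4435-2HG-205, 1889 of 2382 nt (79.3%), matched nowhere else in the genome over at least 50 nt at 95% identity. The first 100 bases of such a stretch in the last exon of each are shown (chr2:111966139-111966238 and chr2:111996531-111996630, GRCh37, minus strand), because reads from them can be assigned to MIR4435-2HG alone.
MIR4435-2HG-208, last exon: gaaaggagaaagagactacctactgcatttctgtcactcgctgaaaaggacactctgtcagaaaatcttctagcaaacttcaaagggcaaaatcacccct
MIR4435-2HG-205, last exon: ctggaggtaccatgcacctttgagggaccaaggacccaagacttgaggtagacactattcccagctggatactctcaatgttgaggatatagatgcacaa

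The promoters were duplicated too. RefSeq promoter windows (250 bases before to 50 after the gene start, GRCh38.p14) were found for both genes, at chr2:87455177-87455476 on the plus strand for CYTOR and chr2:111495112-111495411 on the minus strand for MIR4435-2HG. The windows are offset by 59 bases, and all 241 bases they have in common were identical. Capitals mark TGAGTCA, the letters bound by AP-1, a family of stress- and growth-responsive transcription factors.
CYTOR promoter: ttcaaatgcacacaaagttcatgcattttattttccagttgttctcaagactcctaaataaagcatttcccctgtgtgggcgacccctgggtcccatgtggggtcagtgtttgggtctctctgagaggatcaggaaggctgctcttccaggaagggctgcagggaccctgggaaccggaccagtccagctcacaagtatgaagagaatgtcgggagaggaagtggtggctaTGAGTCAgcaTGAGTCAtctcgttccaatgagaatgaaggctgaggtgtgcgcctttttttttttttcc
MIR4435-2HG promoter: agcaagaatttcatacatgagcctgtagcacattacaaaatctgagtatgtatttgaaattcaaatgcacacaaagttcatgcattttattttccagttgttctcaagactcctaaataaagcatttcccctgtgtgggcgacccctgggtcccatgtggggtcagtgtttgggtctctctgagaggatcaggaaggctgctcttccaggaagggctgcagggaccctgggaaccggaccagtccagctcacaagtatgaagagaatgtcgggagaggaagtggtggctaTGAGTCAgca
TGAGTCA occurred 2 times in the CYTOR window and 1 time in that of MIR4435-2HG, on either strand, and in 4.95% of 35116 RefSeq promoter windows. CCAAT occurred 1 time in the CYTOR window and 0 times in the other, and in 34.6% of all windows. The second TGAGTCA and the CCAAT of the CYTOR window lie past the end of the MIR4435-2HG window, outside the 241 common bases. The unequal counts therefore come from the offset of the windows and show no difference between the copies. TATAAA (11.5% of windows), GGGCGG (45.0%) and CACGTG (7.26%) were in neither. A match describes these letters in this window only.

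Both copies also hold a gene for the same microRNA. The mature miR-4435 in RefSeq is identical from MIR4435-1, in the CYTOR span, and from MIR4435-2, in the MIR4435-2HG span, and no other mature microRNA of the RefSeq table has its seed (bases 2 to 8, in capitals).
hsa-miR-4435: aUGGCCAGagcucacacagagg
In the annotation on GRCh37 the hairpins lie at chr2:87929274-87929353 and chr2:112078589-112078668. The first lies within 3 annotated CYTOR transcripts, 0 of which were measured, whereas the second lies within 73 annotated MIR4435-2HG transcripts, 6 of them measured. Those were MIR4435-2HG-205, MIR4435-2HG-207, MIR4435-2HG-208, MIR4435-2HG-212, MIR4435-2HG-213 and MIR4435-2HG-214, which carry the hairpin in an intron. The table has no entry for the microRNA itself, so its level was not analysed here.

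The deposited values are FPKM, fragments per kilobase of transcript, scaled to the mapped fragments of the library, so they are per length and can be compared between transcripts. Only non-coding transcripts were in the alignment reference, so FPKM is relative to fragments placed on those. Summed FPKM were 1755972 to 1965229 per library, and the steps between low values gave estimated depths of 4500000 to 5070000 fragments on non-coding transcripts. The levels of liver lncRNAs overlapped with those of lncRNAs chosen as markers of other tissues. Of 10 liver lncRNAs chosen, 8 were measured and 5 had a mean above 5 FPKM, among them LINC00261 at 377 ± 27.7 FPKM, whereas FAM99A stood at 0.237 ± 0.285, FAM99B at 0.41 ± 0.0837 and APOA1-AS at 1.14 ± 1.55 FPKM (SD, n = 4, here and throughout). Of 5 blood and immune lncRNAs, 4 were measured and 2 were above 5 FPKM (LINC00426 at 328 ± 24.7 and PCED1B-AS1 at 101 ± 18.9), with MIR155HG at 0. Of 3 muscle lncRNAs, 1 was measured and 0 were above 5 FPKM, and of 4 neural lncRNAs, 3 were measured and 1 was above (DLX6-AS1 at 309 ± 20.9).

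Both genes were among the abundant lncRNA genes of these cells. Summed over its transcripts, CYTOR had 942.7, 533.6, 823.4 and 579.0 FPKM in replicates 1 to 4, a mean of 720 ± 196 FPKM. It ranked at 100 of 11456 genes measured. MIR4435-2HG had 844.3, 472.3, 800.7 and 499.6 FPKM, a mean of 654 ± 195 FPKM and rank 117. Replicates 1 and 3 were high and replicates 2 and 4 low for both genes, and the pairs of libraries did not overlap. In bulk RNA, a smaller number of expressing cells and less RNA per cell cannot be told apart.

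CYTOR was slightly higher than its copy in every library. The log2 ratio of the gene sums, CYTOR over MIR4435-2HG, was 0.16, 0.18, 0.04 and 0.21, a mean of 0.15 ± 0.07, or 1.11-fold. Between the leading transcripts it was 0.29, 0.68, 0.20 and 0.47, a mean of 0.41 ± 0.21, or 1.33-fold. The ratio rests on how reads were divided between copies and on older transcript models. For transcripts whose version number is the same in the present annotation alone, 3 of CYTOR and 5 of MIR4435-2HG, it turned to -1.89.

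**Figure D2:**
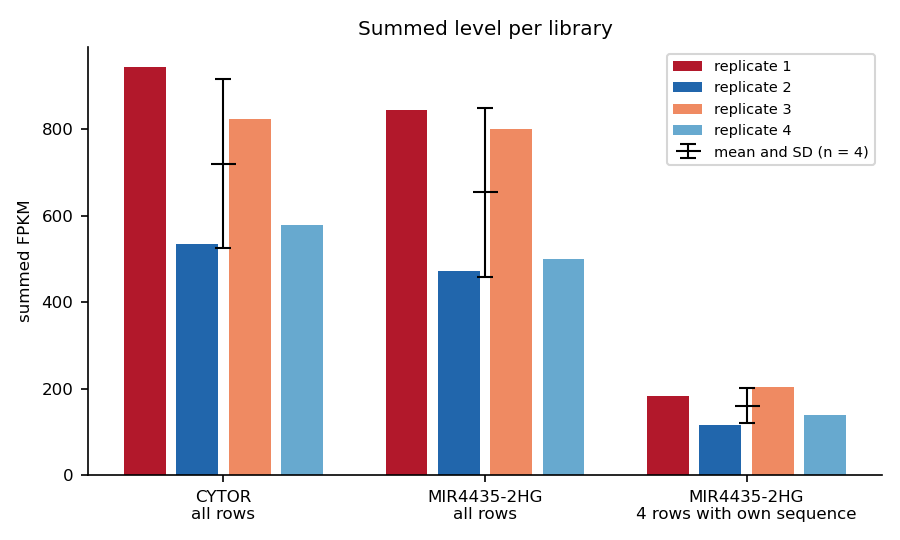
Summed FPKM in each of the 4 libraries (bars), with mean and SD, for all CYTOR transcripts, all MIR4435-2HG transcripts, and the 4 MIR4435-2HG transcripts with sequence of their own in the present models. Replicates 1 and 3 exceed replicates 2 and 4 in all 3 sums.

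The libraries varied more in these genes than in most. Relative to its mean, CYTOR stood at 1.31, 0.741, 1.14 and 0.805 in replicates 1 to 4, and MIR4435-2HG at 1.29, 0.722, 1.22 and 0.764. The coefficient of variation (CV, SD over mean) was 27.2% for CYTOR and 29.9% for MIR4435-2HG, against a median of 11.6% over 1594 genes with a mean of at least 50 FPKM. A lower CV than that of CYTOR was found in 96.2% of those genes, and than that of MIR4435-2HG in 97.6%. Replicates 1 and 3 both lay above replicates 2 and 4 in 149 (9.35%) of them. That order coincides with the letters L and H of the titles, and what the letters stand for cannot be told apart from other differences between the libraries. The order was kept with median-of-ratios scaling, with CVs of 29.9% and 31.9% for CYTOR and MIR4435-2HG, and with libraries brought to a common sum, with 24.1% and 27.1%.

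At the level of transcripts the order was shared by the abundant members. All 6 members with a mean of at least 50 FPKM had replicates 1 and 3 above replicates 2 and 4, as did 9.42% of the 1943 transcripts at that level. Since the pair was chosen for its parallel levels, nothing is read from this share. Of all 25 members, 11 had that order, 4 of CYTOR and 7 of MIR4435-2HG. The share over transcripts of every level was not computed. The 9.42% is therefore no background for this count, and nothing is read from it.

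CYTOR was carried by 3 transcripts, which together held 95.4% of its FPKM. CYTOR-201 had 641.52, 337.19, 491.46 and 398.23 FPKM, a mean of 467 ± 132 FPKM, and made up 64.9% of the gene (59.7% to 68.8% by library). CYTOR-202 (ENST00000409054) had 149.35, 95.97, 130.19 and 88.47 FPKM, a mean of 116 ± 28.7 FPKM. CYTOR-205 (ENST00000413202) had 114.99, 63.68, 170.75 and 66.54 FPKM, a mean of 104 ± 50.3 FPKM. Replicate 1 was highest for the first 2 and replicate 3 for CYTOR-205, whose CV of 48.4% was the largest among the 6 abundant members. CYTOR-205 starts in an exon of its own and ends in the last exon of CYTOR-201.

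The table's model of CYTOR-202 was not the present one. The part of its sequence listed with the study, 399 nt, begins with 145 nt of the CYTOR-201 first exon (chr2:87755020-87755164, GRCh37) and goes on at chr2:87882776-87883030, whereas the present model starts in a different exon. Of the 50 nt windows of the listed part, 38.9% were found in MIR4435-2HG transcripts, against 6.62% for the present model. Version numbers were the same for 8 of the 25 members, and sequence values for the other transcripts are those of the present models.

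The remaining CYTOR transcripts were low. CYTOR-207, with 4 exons, had 15.32, 13.53, 14.16 and 17.72 FPKM, a mean of 15.2 ± 1.85 FPKM, and its CV of 12.2% was small, with replicate 4 the highest. CYTOR-211 had 6.59, 8.76, 5.31 and 1.27 FPKM, a mean of 5.48 ± 3.15 FPKM. The other 6 had means from 0.628 to 4.1 FPKM, and 5 CYTOR transcripts were at 0 in at least 1 library. CYTOR-203, the longest CYTOR transcript at 1394 nt, had 6.16, 0, 5.7 and 4.53 FPKM.

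MIR4435-2HG was spread over more transcripts, with 76.4% of its FPKM in the top 3. MIR4435-2HG-203 had 525.16, 209.89, 428.27 and 287.01 FPKM, a mean of 363 ± 141 FPKM and 55.4% of the gene. Its estimated fragments were 1026, 443, 876 and 631. MIR4435-2HG-214 (ENST00000451884) had 73.58, 46.96, 102.16 and 64.98 FPKM, a mean of 71.9 ± 23.0 FPKM. MIR4435-2HG-208 (ENST00000439362) had 82.4, 48.82, 71.87 and 57.57 FPKM, a mean of 65.2 ± 14.9 FPKM. All 3 were lowest in replicate 2, and the last 2 end far beyond the duplicated blocks.

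Several MIR4435-2HG transcripts did not share the order of the libraries. MIR4435-2HG-206 (ENST00000432268) had 41.97, 43.71, 44.24 and 25.55 FPKM, a mean of 38.9 ± 8.93 FPKM, with replicate 4 apart from the other libraries. MIR4435-2HG-201 (ENST00000308604) had 40.17, 45.52, 37.46 and 12.27 FPKM, a mean of 33.9 ± 14.8 FPKM, again lowest in replicate 4. MIR4435-2HG-213 had 11.99, 16.93, 24.95 and 10.72 FPKM, a mean of 16.1 ± 6.45 FPKM, and MIR4435-2HG-211 had 8.73, 12.29, 32.44 and 6.54 FPKM, a mean of 15.0 ± 11.9 FPKM. Both were highest in replicate 3.

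The longest member, MIR4435-2HG-205, followed the order of the gene. It had 17.76, 8.67, 17.94 and 9.2 FPKM, a mean of 13.4 ± 5.15 FPKM. MIR4435-2HG-212 had 8.44, 11.46, 11.92 and 6.88 FPKM, a mean of 9.68 ± 2.42 FPKM, and its libraries followed no such order. MIR4435-2HG-215, MIR4435-2HG-204 and MIR4435-2HG-210 had means of 7.55 ± 4.41, 7.41 ± 3.19 and 7.24 ± 4.22 FPKM. The lowest were MIR4435-2HG-207 at 4.79 ± 3.4 FPKM and MIR4435-2HG-209 at 0.643 ± 0.458 FPKM, the latter with 0 in replicate 2.

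**Figure D3:**
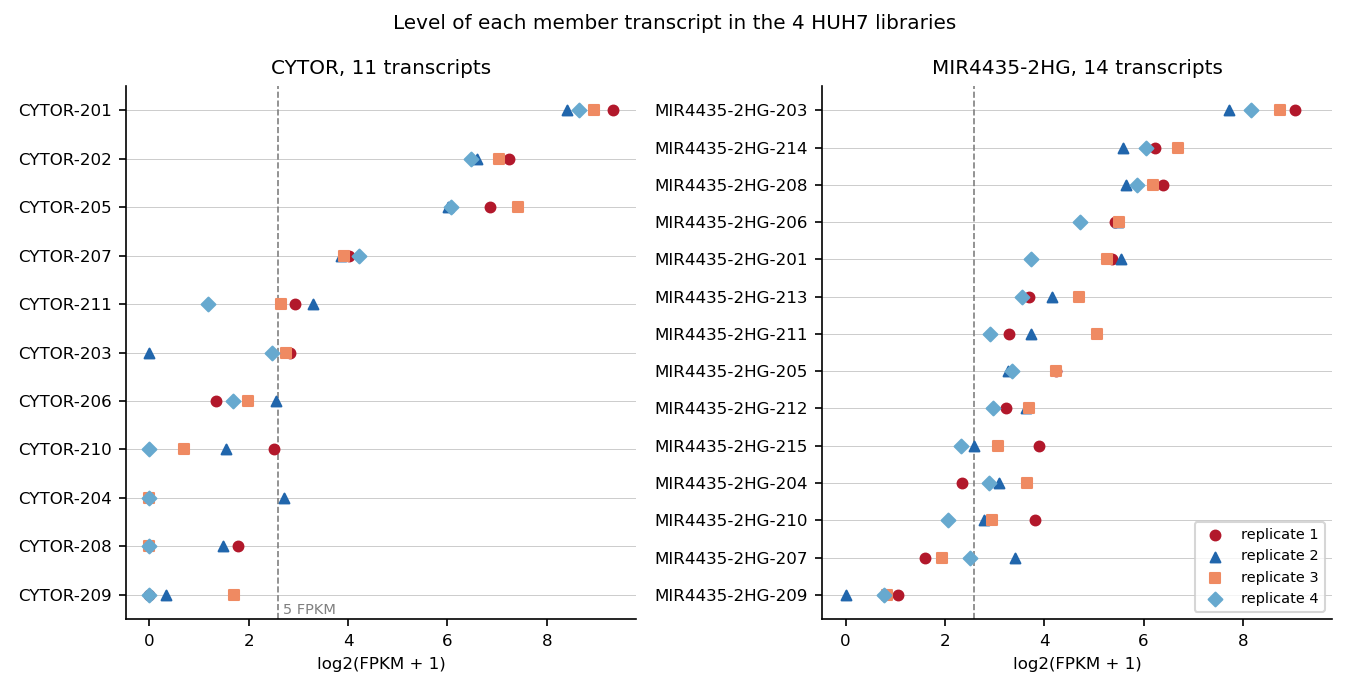
Level of each of the 25 member transcripts as log2(FPKM + 1) in the 4 libraries (points), ordered by mean within each gene, with a dashed line at 5 FPKM. The 3 highest CYTOR transcripts stand apart from the other 8, and MIR4435-2HG-203 stands apart from the other 13 of its gene.

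The study took 5 FPKM as the level above which lncRNAs were kept. Over all 11435 transcripts tested against that level with limma's one-sample test of log2(FPKM + 1), with Benjamini-Hochberg adjustment, 41.9% were called above and 43.3% below. By the same call, 13 of the 25 members lay above and 6 below, with the other 6 on neither side. Since the pair was chosen on these values, the counts are no test of the members and nothing is read from them. Of CYTOR, 4 transcripts lay above and 5 below, and of MIR4435-2HG, 9 lay above and 1 below. Those on neither side were CYTOR-203 and CYTOR-211 and MIR4435-2HG-204, MIR4435-2HG-207, MIR4435-2HG-210 and MIR4435-2HG-215.

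In the transcripts, sequence sharing was broad but not complete. All bases of all 11 CYTOR transcripts aligned to the MIR4435-2HG locus at 95% identity or more, and 7 of the 14 MIR4435-2HG transcripts aligned in full to the CYTOR locus. Of 3950 distinct 50 nt windows of the CYTOR transcripts, 37.4% occurred without a mismatch in a measured MIR4435-2HG transcript. Conversely, 18.4% of 8051 MIR4435-2HG windows occurred in a measured CYTOR transcript. Among the 18373 of 19835 transcripts with a match in the annotation, no other gene had one with such a window in its present model.

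Individual transcripts differed widely in this respect. Within the leading pair, 47.9% of the CYTOR-201 windows were in MIR4435-2HG-203 and 49.5% the other way round. MIR4435-2HG-215 had 85.9% of its windows in CYTOR-203. At the other end, MIR4435-2HG-206 aligned in full to the CYTOR locus, but 0 of its windows were in any other measured transcript of either gene, since its exons are not exons of those. Its levels departed from the order of the gene sums, as did those of MIR4435-2HG-201, with 58.6% of its windows in CYTOR transcripts. MIR4435-2HG-205 (9.22%) and MIR4435-2HG-215 (85.9%) both had the order. Any link between sharing and order was not tested.

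**Figure D4:**
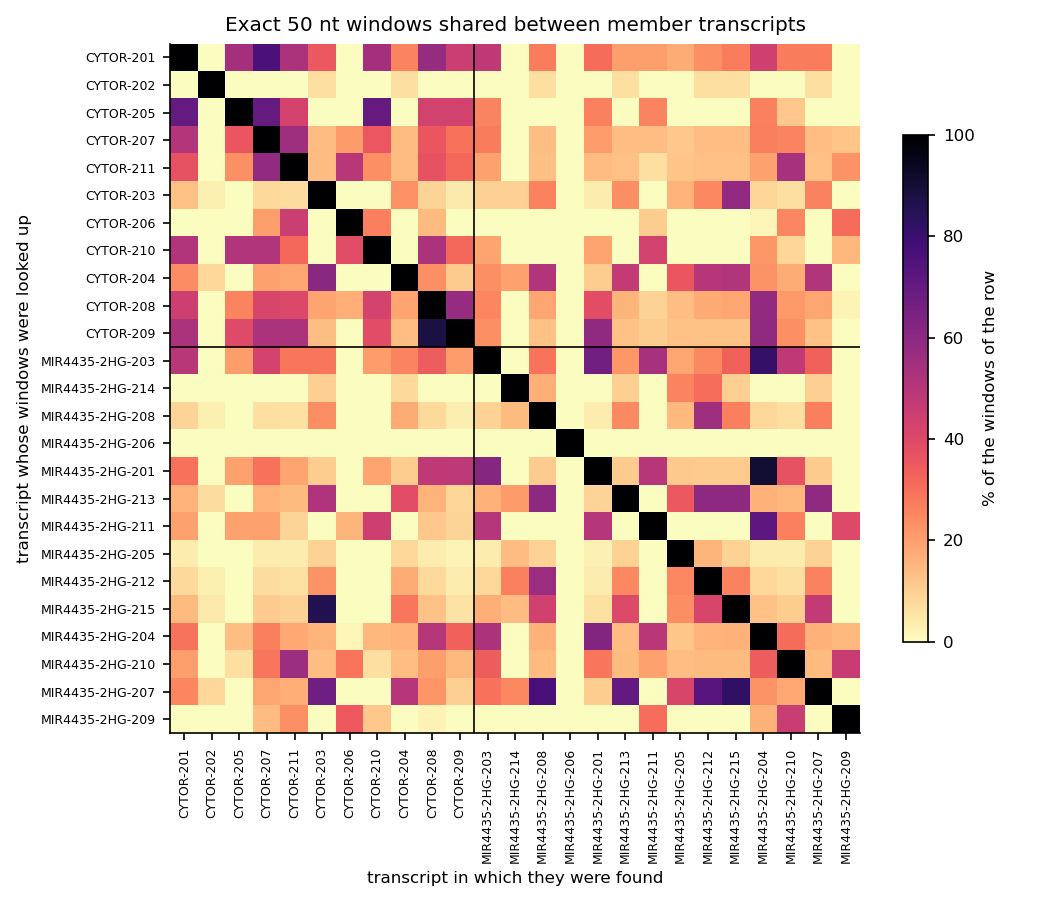
Percentage of the exact 50 nt windows of each member transcript (vertical axis) that occur in each other member (horizontal axis), with black lines between CYTOR and MIR4435-2HG. MIR4435-2HG-206 shares 0 windows with any other member, and MIR4435-2HG-215 shares 85.9% of its windows with CYTOR-203.

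The sum of the MIR4435-2HG transcripts with sequence of their own had the order of the gene sums. In the present models of MIR4435-2HG-205, MIR4435-2HG-208, MIR4435-2HG-212 and MIR4435-2HG-214, at least 200 nt matched nowhere else. Each of these transcripts was measured on an older version of its model, which may differ. Besides, 9.22% to 23.5% of their windows occur in CYTOR transcripts, so their sum is no separate measure of MIR4435-2HG. Their summed FPKM were 182, 116, 204 and 139, a mean of 160 ± 40.1 FPKM, or 24.5% of the gene. Replicates 1 and 3 were again above replicates 2 and 4, at 1.14, 0.724, 1.27 and 0.866 of the mean, although MIR4435-2HG-212 alone did not have that order. The other 10 MIR4435-2HG transcripts summed to 662, 356, 597 and 361 FPKM, a mean of 494 ± 159 FPKM. MIR4435-2HG-206 was among them, because it aligns in full to the CYTOR locus, although 0 of its windows were in another member. The CV was 25.0% for the first set and 32.1% for the second. For CYTOR no transcript has such a stretch by this match to the genome. Reads were placed on transcripts, however, and the present models of all 11 CYTOR transcripts hold 50 nt windows found in no other transcript searched. The level of CYTOR apart from that of the copy was not computed from such windows.

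Annotated introns were shared as well. In the present models the measured CYTOR transcripts have 19 distinct introns, and all 19 could be placed in the MIR4435-2HG locus. Of these, 12 matched an intron of a measured MIR4435-2HG transcript with ends within 3 nt. Reads across introns were not examined, so this describes the models and not splicing in these cells. In 6 cases a CYTOR transcript and a MIR4435-2HG transcript had the same chain of introns, with 98.5% to 99.7% identity between them.

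The leading pair and the other 5 pairs leaned to opposite genes. CYTOR-201 was above MIR4435-2HG-203 in 4 of 4 libraries, and the pair summed to 1167, 547, 920 and 685 FPKM, a mean of 830 ± 272 FPKM. CYTOR-209, by contrast, stood at 0.628 ± 1.08 FPKM and its counterpart MIR4435-2HG-201 at 33.9 ± 14.8 FPKM, with 4 substitutions between them. CYTOR-210 and MIR4435-2HG-211 stood at 1.81 ± 2.09 and 15.0 ± 11.9 FPKM, and CYTOR-208 and MIR4435-2HG-204 at 1.07 ± 1.26 and 7.41 ± 3.19 FPKM. In those 3 pairs CYTOR was higher in 0 of 4 libraries. In the pairs CYTOR-211 with MIR4435-2HG-210 (5.48 ± 3.15 and 7.24 ± 4.22 FPKM) and CYTOR-203 with MIR4435-2HG-215 (4.1 ± 2.82 and 7.55 ± 4.41 FPKM) it was higher in 1 of 4, and the levels overlapped. Summed over the 5 pairs, the CYTOR side had 13.1 ± 5.79 FPKM and the MIR4435-2HG side 71.0 ± 27.1 FPKM. Whether the division of reads between near-identical transcripts set these levels was not tested. In every pair the CYTOR transcript, and in some also the MIR4435-2HG transcript, was measured on an older version of its model. The pairing by introns holds for the present models only.

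**Figure D5:**
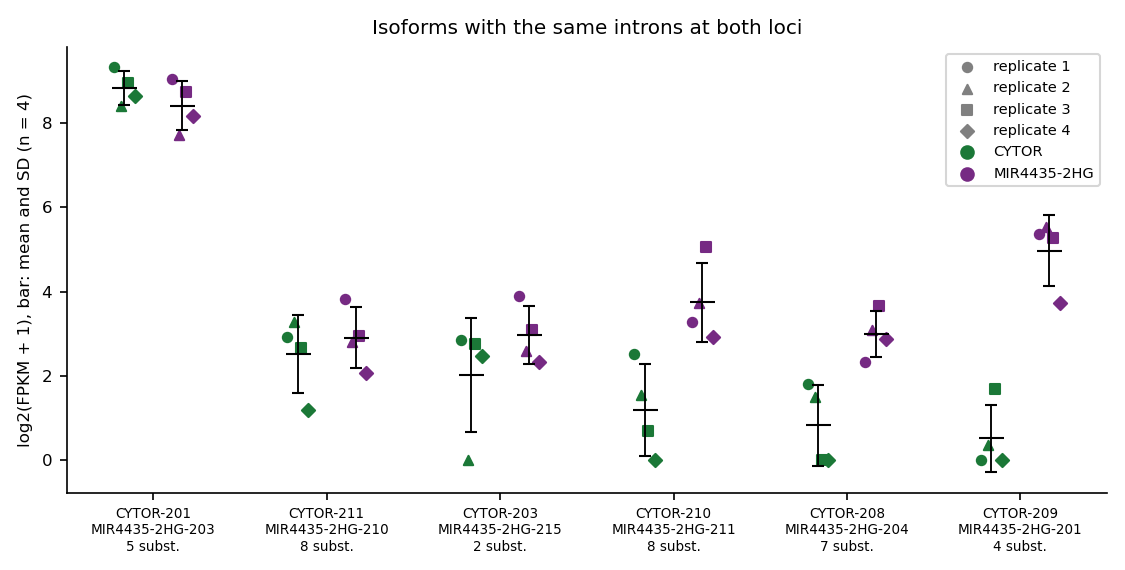
Levels as log2(FPKM + 1) of the 6 pairs of transcripts with the same introns at both loci in the present models. Shown are 1 point per library, mean and SD (n = 4), and the number of substitutions under each pair. CYTOR is higher in the leading pair in 4 of 4 libraries and lower in 4 of 4 libraries in 3 other pairs.

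Each gene was among the nearest in pattern to the other. Likeness was the root mean square difference of centred log2(FPKM + 1) over the 4 libraries, among 1593 other genes with a mean of at least 50 FPKM, a small number being a close pattern. MIR4435-2HG ranked 4th for CYTOR, at 0.0644 against a median of 0.398 over all genes, after ENSG00000226900 (0.0495), GIHCG (0.0501) and ENSG00000258964 (0.0559), and before MIR22HG (0.0745). For MIR4435-2HG, CYTOR ranked 2nd, after ENSG00000258964 (0.0105), a gene with 371.7, 206.7, 345.7 and 218.5 FPKM, and before FAM131B-AS2 (0.0897), MIR22HG (0.0926) and LINC01504 (0.101). These genes share no 50 nt window with the pair. A gene with little spread lies far from the pair by construction of this measure. The CVs of the pair were 27.2% and 29.9%, against a median of 11.6%. The pair was chosen for its parallel levels, and reads it shares were divided by estimation. The points share 4 libraries only, so the values and the order of the ranks are a description.

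Neighbouring transcripts were mostly low. Within 1 Mb of CYTOR, 6 transcripts of other genes were listed, 2 with a mean above 5 FPKM and 1 at 0 in all libraries. The highest was one of EIF2AK3-DT at 24.7 ± 1.95 FPKM, with 26.27, 21.87, 25.53 and 25.25 FPKM in replicates 1 to 4, followed by one of ENSG00000225420 at 7.02 ± 1.35 FPKM and one of CHMP3-AS1 at 2.43 ± 1.19 FPKM. Within 1 Mb of MIR4435-2HG there were 28, of which 5 were above 5 FPKM and 16 at 0. Of all 19835 transcripts, 12027 were above 0 in at least 1 library, so transcripts at 0 were common elsewhere too. The share of all transcripts with a mean above 5 FPKM was not computed, and the counts are a description. The highest there was one of MTLN, which encodes a mitochondrial micropeptide, at 242 ± 29.7 FPKM, followed by ENSG00000273471 at 29.5 ± 4.53 FPKM and ZC3H6 at 17.33, 13.16, 14.08 and 11.53 FPKM in replicates 1 to 4. The sums of both members stood above the level of every one of these neighbouring transcripts.

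Among lncRNAs known from liver cancer, 4 had a higher mean than both members. Of 18 such genes chosen, 15 were measured and 13 had a summed mean above 5 FPKM. DANCR, which is also a small nucleolar RNA host, reached 3882 ± 322 FPKM and MALAT1, a nuclear speckle RNA, 1098 ± 298 FPKM, both above the pair. HULC, a lncRNA named for its high level in liver cancer, had 693 ± 64.8 FPKM, which lies between the means of the pair and within 1 SD of either. TUG1 had 336 ± 40.1 FPKM.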

How the data were processed

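Per the labels and methods, the authors aligned reads of 4 strand-specific, ribosomal RNA-depleted HUH7 libraries with Bowtie 1.01 to Ensembl non-coding transcripts on hg19 (GRCh37), and summarised them with RSEM 1.2.3. The deposited values are FPKM with 2 decimals, 1 column per library. Whether the aligner used strand is not given in the sources used here.

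Identifiers were matched to GENCODE release 44 mapped to GRCh37, where 18373 of 19835 matched, 11443 with the same version. Gene levels were sums over transcripts. Transcripts whose mean reached 0.1 FPKM were tested on log2(FPKM + 1) against 5 FPKM with limma 3.58.1 in R 4.3.3 (one-sample, trend, two-sided, Benjamini-Hochberg, threshold 0.05), a script tested on simulated data. Loci were compared with blastn 2.17.0, and transcripts also by exact 50 nt windows. Depth came from steps of FPKM times effective length (length minus 80 nt), with 68.7% to 69.1% of low values within 0.05 of a whole fragment, so no count test was run. Depth covers counting error only.

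All member transcripts were accounted for, and those with a mean above 5 FPKM, at most 12 per gene, were named with values, besides the nearest genes in pattern and the 3 highest neighbours on each side. The members and lists (liver cancer, liver, blood and immune, muscle and neural lncRNAs) were chosen with earlier results of these data known. Alternatives covered the pseudocount, filters, thresholds, scaling, transcript versions, window lengths and leaving out each library.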

Additional observations from a re-analysis of the deposited data

Results flagged for a closer look

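Of 29 series of 4 values checked (25 transcripts and 4 sums), 3 had 1 library far from the others, judged by its gap to the nearest other library over the whole range. Chance marks about 1 series in 20 where the values are independent and normally distributed. Series near 0, and sums of the same transcripts, do not meet this, so the rate is no guide here. CYTOR-204 had a gap of 1.0 of the range, with 5.58 FPKM in replicate 2, about 13.0 estimated fragments, and 0 in the others. CYTOR-209 had a gap of 0.879, with 2.24 FPKM in replicate 3. MIR4435-2HG-206 had a gap of 0.879, with 25.55 FPKM in replicate 4. It is the only one of the 3 with a mean above 5 FPKM.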

How the results depend on the processing

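Of 61 recomputed values, 46 counted as unchanged. For levels and log2 ratios this meant the same direction and a move within the SD between libraries. For counts of calls and the CV it meant a move of at most 1.5 times. The identity of the copies had to be equal, and window shares had to lie within a confidence interval of the main share. With only transcripts of the same version, CYTOR fell to 121 FPKM and MIR4435-2HG to 443 FPKM, and the log2 ratio turned to -1.89, since the leading CYTOR transcript has another version and was left out. With the highest transcript in place of the sum they were 467 and 363 FPKM, with a log2 ratio of 0.41. Without transcripts mostly shared with the other gene the log2 ratio was 0.31. Scaled to a common sum, the means were 379 and 344, as the construction of that scale implies. Windows of 25 nt were shared to 47.4% (CYTOR) and 22.7% (MIR4435-2HG), windows of 75 nt to 30.0% and 15.0%, and those of all annotated transcripts to 54.0% and 27.6%. Leaving out 1 library at a time gave 645 to 782 FPKM for CYTOR, 591 to 715 FPKM for MIR4435-2HG, log2 ratios of 0.12 to 0.18, a CV of the sum of both genes of 24.8% to 33.4%, and 13 to 14 members above 5 FPKM, of 4669 to 4781 transcripts above. Against 10 FPKM, 10 members and 3863 of all transcripts were above, and against 1 FPKM, 19 and 6730. No paired analysis was possible because the libraries form 1 group.

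Limits: with 4 libraries of 1 group, FPKM estimated across near-identical copies, and older transcript models, both the division between the genes and their sum, 1374 ± 390 FPKM (CV 28.4%), depend on the models and scaling used.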
